A study of Gallus gallus with 4 samples.

Results

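The effect of thalidomide on the day 6 chick embryo in the presence of a nitric oxide donor was examined by comparing the whole-embryo RNA sequencing library of embryos that had received both compounds with the library of embryos that had received the donor alone. The 4 conditions were sequenced with 1 library each, all from Gallus gallus embryos treated at Hamburger-Hamilton stage 8 and collected on day 6. The first was thalidomide at 40 µg/ml together with spermine NONOate at 10 µM, called the combination here. The others were spermine NONOate at 10 µM, thalidomide at 40 µg/ml, and a control labelled DMSO. The sources used here do not say whether a library came from 1 embryo or from a pool, nor which sex the embryos were. The genes compared were those with at least 20 reads in the combination library or in the NONOate library, which were 12161 of the 13081 genes of the table (93.0%). The other 920 genes did not reach that minimum. There were 25 genes with exactly 20 reads in the higher library, just inside the minimum, and 28 with exactly 19, just outside it.

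Thalidomide binds cereblon, the receptor subunit through which a cullin ubiquitin ligase recognises its substrates, and directs that ligase to proteins it would not otherwise degrade. In human cells and in sensitive embryos these include zinc finger transcription factors such as SALL4, and the drug is known for limb, ear, eye and vessel defects. Spermine NONOate decomposes in solution and releases nitric oxide, a gas that activates soluble guanylate cyclase and thereby raises cyclic GMP, the messenger that relaxes smooth muscle and widens vessels. The comparison asks which transcripts differed with thalidomide when the donor was present in both libraries.

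With 1 library a side there is no spread between embryos to set a difference against, so no p-value was computed and every statement compares these libraries only. Levels are given as normalised read counts (CPM, scaled between libraries with TMM), and differences as log2 ratios of the combination over NONOate, with a 95% exact interval that covers counting error alone. A gene was called higher or lower when the ratio was at least 2-fold with 0.5 reads added to each count and the interval excluded a ratio of 1. The libraries held 72309065 reads in genes for the combination and 62576258 for NONOate, with 66889240 for thalidomide and 79359076 for control. At this depth the median half-width of the interval was 0.73 (log2) for genes with 20 to 99 reads in the higher library and 0.035 for genes with 10000 reads or more. Markers of liver, red blood cells, lens, muscle, neurons, kidney, endothelium, leukocytes, cartilage and pigment cells were checked, and all that the table holds had at least 20 reads in both libraries. RNA from whole embryos cannot tell fewer cells of a type from less RNA per cell.

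In the combination 1197 genes were called higher (9.84% of those compared) and 733 were called lower (6.03%), against the NONOate library. The median log2 ratio over all genes compared was 0.01, with the middle of the distribution between -0.43 and 0.50 (25th and 75th percentiles). At 4-fold or more 159 genes were higher and 80 lower, and at 8-fold or more 40 were higher and 17 lower. Higher genes made up 62.0% of the calls. This split depends on the scaling, because 77.7% of calls were higher when libraries were scaled by their total reads, under which each log2 ratio was higher by about 0.16 and the median of all genes was 0.17. Scaling by total reads therefore adds higher calls and removes lower ones near 2-fold, and where it moved a list's count by more than 1.5 times, that count or the gene concerned is given beside the list. The authors' deposited table lists 407 genes as higher and 217 as lower at an unadjusted p under 0.05. Of these, 404 and 209 were called in the same direction by the rule of size used here, and none in the other. Both rest on the same libraries, so this overlap is not an independent check.

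**Figure D1:**
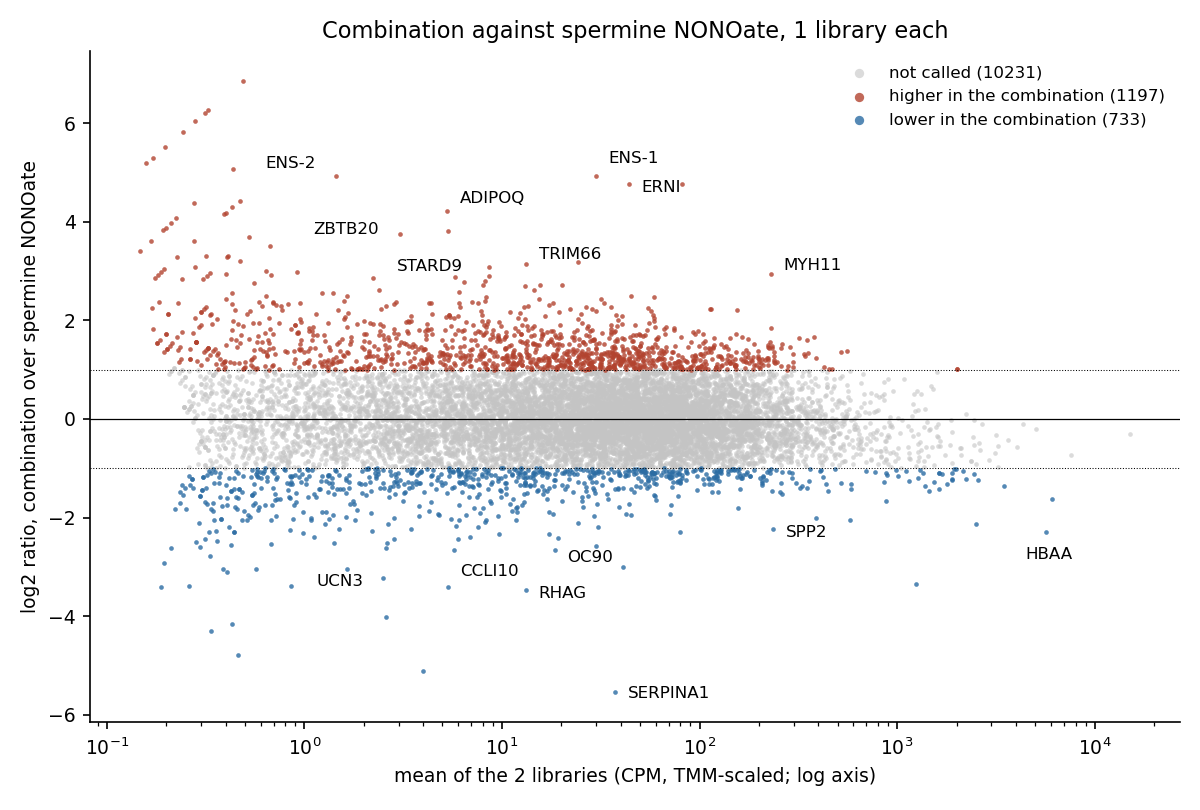
Each point is 1 of the 12161 genes compared, at its mean level in the combination and spermine NONOate libraries (CPM, log axis) and its log2 ratio of combination over spermine NONOate, with dotted lines at 2-fold. The 1197 genes called higher (red) and the 733 called lower (blue) lie at all levels, with ENS-1 and ERNI near 5 above and SERPINA1 near -5.5 (log2 -5.54) furthest below among the named genes.

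The highest named genes belonged to a single chicken family on chromosome 1. ENS-1 and ERNI, genes derived from an endogenous retrovirus and known from early chick embryos and embryonic stem cells, were higher in the combination. ENS-1 stood at 57.7 CPM in the combination and 1.88 CPM in NONOate, and at 34.8 CPM in thalidomide and 1.29 CPM in control. Its log2 ratio was 4.94 (4.67 to 5.22). ERNI stood at 84.7 CPM in the combination and 3.11 in NONOate, with a log2 ratio of 4.77 (4.56 to 4.99). ENS-2, a further member, had 216 reads in the combination and 5 in NONOate (4.93, 3.82 to 6.70). Both libraries that had received thalidomide held more of this family than both that had not. Its copies are near-identical and reads can be divided among them, so the level of each copy is uncertain. In the list of early embryo and repeat-derived genes 3 of 9 members were higher (33.3%, beside 9.84% of all genes) and 2 lower (22.2%, beside 6.03%). The median log2 ratio was 0.14. Beside ENS-1 and ERNI the third was LIN28B, which encodes an RNA-binding repressor of let-7 microRNAs (1.47, 1.27 to 1.67), and the lower members were the germ cell genes TDRD9 (-1.91) and DAZL (-1.05), of which DAZL lost the call under scaling by total reads.

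Among the other genes far above NONOate, ADIPOQ, which encodes the fat-cell hormone adiponectin, had 777 reads (10.0 CPM) in the combination and 32 reads (0.532 CPM) in NONOate. The log2 ratio was 4.21 (3.73 to 4.79). Thalidomide alone and control were nearly level for this gene, at 5.23 and 5.69 CPM, so the NONOate library was the low one of the 4. TRIM66, a chromatin-associated tripartite motif protein, showed the same order, with 23.9 CPM in the combination and 2.68 in NONOate beside 8.56 in thalidomide and 11.8 in control (log2 3.15, 2.92 to 3.40). NMUR1, a receptor of the peptide neuromedin U, was also lowest in NONOate (10.2 CPM in the combination, 1.38 in NONOate, 23.4 in thalidomide and 14.1 in control). In contrast, the zinc finger repressor gene ZBTB20 (3.75), the kinesin gene STARD9 (3.09), the diacylglycerol kinase gene DGKH (2.89), C12ORF51 (2.71) and the focal adhesion gene LPP (2.70) were also called higher with thalidomide alone over control, by log2 3.02, 2.56, 2.65, 1.94 and 1.61.

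Of the cereblon ligase and its known drug-recruited substrates, 21 genes were compared, and 1 was higher and 1 lower. The share called was 9.52%, below the 15.9% of all genes. The median log2 ratio was 0.12 against 0.01 over all genes. CRBN, the drug's direct target, had 25.2 CPM in the combination and 17.1 CPM in NONOate, a log2 ratio of 0.56 (0.45 to 0.67) that was below the 2-fold threshold. The adaptor DDB1 had a ratio of 0.89 (0.85 to 0.92) and the scaffold CUL4A one of -0.05 (-0.14 to 0.04). IKZF2, which encodes the lymphoid zinc finger factor Helios, was the member called higher, at 6.53 CPM in the combination and 1.84 in NONOate (1.82, 1.53 to 2.13). RNF7, a RING subunit of cullin ligases, was the member called lower (-1.02, -1.06 to -0.98). It is counted in this list, although it is not taken here as a subunit of the cereblon ligase itself. Under scaling by total reads this list had 4 members higher and none lower, without the call of RNF7. SALL4 stood at 21.4 CPM in the combination, 11.4 in NONOate, 31.9 in thalidomide and 12.7 in control. Its log2 ratio with NONOate present was 0.90 (0.78 to 1.04), under the threshold under TMM scaling and past it, at 1.06, when libraries were scaled by total reads. The ratio of DDB1 likewise passed under that scaling, at 1.05. The substrates TP63 (0.16) and IKZF1 (0.22) were not called, and neither was MEIS2 (0.04).

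Few limb genes were called. Of 38 genes of limb signalling and identity 2 were higher (5.26%, beside 9.84% of all genes) and none lower (6.03% of all genes), with a median log2 ratio of 0.18. GLI3, the transcriptional repressor that patterns the digits downstream of Hedgehog, was the highest, with 94.7 CPM in the combination and 21.9 CPM in NONOate (2.11, 2.03 to 2.20). HOXA13, the homeobox gene of the distal limb, had 2.18 CPM in the combination and 0.831 in NONOate (1.38, 0.93 to 1.88). The signals SHH and FGF8, which come from the posterior margin and the apical ridge of the bud, were not called, with log2 ratios of 0.42 (0.30 to 0.55) and 0.39 (0.08 to 0.72). The vessel signal VEGFA (0.29) and its receptor KDR (0.35) were not called either. In the endothelial list FLT4, the receptor for the lymphatic growth factor VEGFC, was the only called gene among 17 (1.38, 1.28 to 1.47). That share was 5.88%, below the 9.84% higher of all genes, and the list median was 0.35. Among 15 genes of the homeobox clusters, HOXA13 was the only call (6.67%).

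Among 30 genes of nitric oxide and cyclic GMP signalling 6 were higher and 2 lower, with a median log2 ratio of 0.38. The share called was 26.7%, beside 15.9% of all genes. The lower share was 6.67%, near the 6.03% of all genes, whereas 9.84% of all genes were higher. The calls lay mostly downstream of nitric oxide, among enzymes that make, break down or respond to cyclic nucleotides. GUCY1A2, a subunit of soluble guanylate cyclase, had 13.8 CPM in the combination and 2.11 CPM in NONOate, beside 11.4 in thalidomide and 3.11 in control (2.71, 2.45 to 2.99). The phosphodiesterase genes PDE3A (1.72), PDE10A (1.33) and PDE5A (1.05), the cyclic GMP-dependent kinase gene PRKG1 (1.07) and MRVI1 (1.06), a substrate of that kinase in smooth muscle, were the other higher members. The more abundant cyclase subunits GUCY1A3 (-0.72) and GUCY1B3 (-0.12) were not called. Neither of the nitric oxide synthases that were measured was called, with NOS1 at 0.67 (0.50 to 0.85) and NOS2 at 0.23 (0.14 to 0.32). GUCY2C, the membrane guanylate cyclase of the gut lining, was lower, at 2.17 CPM in the combination and 8.89 CPM in NONOate (-2.04, -2.30 to -1.79). Thalidomide and control held 1.47 and 1.34 CPM of it. ASS1, the argininosuccinate synthase that regenerates arginine, was the other lower member (-1.44, -1.62 to -1.27). In the polyamine list, relevant because the donor carries spermine, 12 genes were compared, with a median of -0.26. The transporter gene ATP13A3 was higher (1.30) and the agmatinase gene AGMAT lower (-1.01), 16.7% called beside 15.9% of all genes. The call of AGMAT was lost under scaling by total reads and with 5 reads added to each count.

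Blood was one of the groups with the lowest ratios. Of 5 haemoglobin genes 3 were lower, 1 was higher and the median log2 ratio was -1.63. Over all genes 6.03% were lower and 9.84% higher. The summed reads of the haemoglobin genes were 1.03% of all reads in the combination and 2.45% in NONOate, beside 0.601% in thalidomide and 2.56% in control. HBAA, the adult-type alpha globin, stood at 1924 CPM in the combination and 9441 CPM in NONOate (-2.29, -2.30 to -2.29). HBAD, the alpha-D globin, stood at 929 CPM in the combination and 4089.8 in NONOate (-2.14, -2.15 to -2.13), and HBG2, whose symbol names a beta-type globin, at 2963 CPM in the combination and 9140.1 in NONOate (-1.63, -1.63 to -1.62). All of these were lowest in thalidomide alone. The embryonic alpha-type gene HBZ went the other way, with 2686 CPM in the combination, 1334 in NONOate, 2219.9 in thalidomide and 2076 in control (1.01, 1.00 to 1.02). This ratio came just under 2-fold with DESeq2 and upper quartile scaling, which left no haemoglobin gene called higher. HBE, an embryonic beta-type gene by its symbol, was not called (-0.50, -0.52 to -0.49). Haemoglobin genes resemble each other closely enough to share reads.

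Red cell membrane genes gave 3 lower calls and no higher ones among 6, with a median of -1.22. Over all genes 6.03% were lower and 9.84% higher. RHAG, the Rh-associated glycoprotein of the red cell membrane, had 2.19 CPM in the combination and 24.3 CPM in NONOate (-3.47, -3.71 to -3.24), and thalidomide and control held 0.694 and 17.6 CPM. EPB42, which encodes protein 4.2 of the membrane skeleton, was lower by the same rule (-1.52, -1.62 to -1.43), as was KEL, the Kell metalloprotease (-1.52, -1.69 to -1.36). The genes of haem synthesis and iron uptake were not called in either direction among 10 measured (median -0.40, from -0.85 for GLRX5 to 0.57 for the transferrin receptor TFRC). Erythroid transcription factors and regulators were not called either, among 7 measured (median 0.32).

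Leukocyte and macrophage genes had 7 lower (28.0%, beside 6.03% of all genes) and 1 higher (4.0%, beside 9.84%) among 25, with a median of -0.49. The chemokine gene CCLI10 had 71 reads in the combination and 586 in NONOate (-3.40, -3.79 to -3.05), and the chemokine genes CCLI7 (-1.91) and IL8 (-2.50, from 6 reads in the combination and 28 in NONOate) were lower as well, as was HAVCR1 (-1.47). CD4 (-1.18) and SPI1 (-1.03), which encode a T-cell coreceptor and a myeloid transcription factor, were also lower. The defining genes PTPRC (-0.17) and CSF1R (-0.15) were not called, and C1QC, a complement subunit made by macrophages, was higher (1.47). Under scaling by total reads 2 were higher, and SPI1 lost its call. MPO, the myeloperoxidase of granulocytes, was higher, with 304 reads in the combination and 32 in NONOate (2.86, 2.35 to 3.45), and also in thalidomide over control (3.70).

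Plasma proteins made mainly by liver gave lower calls and no higher ones. Of 13 carriers 9 were lower (69.2%, beside 6.03% of all genes), with a median of -1.21. Of 26 clotting factors and protease inhibitors 9 were lower (34.6%), with a median of -0.67. ALB, the serum albumin, stood at 154 CPM in the combination, 619.7 in NONOate, 12.9 in thalidomide and 64.8 in control. The combination was thus 4.03-fold lower than NONOate (log2 -2.01, -2.04 to -1.98) and still above control, and the NONOate library had the highest level of the 4. FETUB, which encodes fetuin-B, was lower at 27.0 CPM in the combination and 132 in NONOate (-2.29, -2.36 to -2.22), as were the retinol carrier RBP4 (-1.93), the thyroid hormone and retinol carrier TTR (-1.48) and the vitamin D carrier GC (-1.10). SPP2, a secreted phosphoprotein of liver and bone, was at 83.0 CPM in the combination and 391 in NONOate (-2.23, -2.27 to -2.19). SERPINB14, the gene of the egg white protein ovalbumin, was lower too (-2.43, -2.70 to -2.17). It is counted among the 9 lower carriers, although ovalbumin is not a plasma carrier made by liver.

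SERPINA1, the gene of alpha-1 antitrypsin, had the lowest ratio of the named genes. It had 122 reads in the combination and 4416 in NONOate, with 24 in thalidomide and 674 in control. Its log2 ratio was -5.54 (-5.82 to -5.29) with NONOate present and -4.74 without. Other protease inhibitors that were lower had ratios nearer to 0, including SERPINA4 (-1.62), the protein Z-dependent inhibitor SERPINA10 (-1.48) and heparin cofactor SERPIND1 (-1.44). SERPINA5, the inhibitor of activated protein C, was lower on few reads, 56 in the combination and 267 in NONOate (-2.61, -3.06 to -2.20). The carboxypeptidase gene CPB2 (-1.37) and the fibrinogen chains FGB (-1.17) and FGG (-1.09) were lower, whereas the third chain FGA (-0.58), antithrombin SERPINC1 (-0.32) and prothrombin F2 (-0.61) were not called. The reads of the carrier list summed to 0.0588% of the combination library, 0.152% of NONOate, 0.0190% of thalidomide and 0.0299% of control. Those of the clotting and inhibitor list summed to 0.133% of the combination library, 0.196% of NONOate, 0.0557% of thalidomide and 0.0574% of control. NONOate was thus the high library, and the clotting list's median log2 ratio of thalidomide over control was -0.08, with 2 higher and 4 lower calls among 25 genes.

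Liver enzymes and regulators did not share one direction. Of 24 enzymes of amino acid catabolism 5 were lower (20.8%, beside 6.03% of all genes) and 1 higher (4.17%, beside 9.84%). Their median was -0.71, and 3 were lower under scaling by total reads. The lower members were the urea cycle genes ASS1 (-1.44) and OTC (-1.54, from 21 reads in the combination and 48 in NONOate), the tryptophan-degrading enzymes KMO (-1.21) and TDO2 (-1.09), and UROC1 of histidine breakdown (-1.06). CBS, the cystathionine synthase, was higher (1.21). Of 14 genes in the list of liver and gut endoderm regulators 5 were higher (35.7%) and 1 was lower (7.14%), with a median of 0.58. Among the higher ones were the transcription factor genes PROX1 (24.0 CPM in the combination and 10.5 in NONOate, 1.20), ONECUT1 (1.12) and CDX2 (2.98, 1.27 to 6.40, from 25 reads in the combination and 2 in NONOate), and A1CF, the cofactor of apolipoprotein B mRNA editing (1.36, 1.18 to 1.55). The lower member was TTR, which is a carrier and not a regulator. Lipoprotein and lipid carrier genes had 3 lower members among 12, the intestinal fatty acid-binding gene FABP2 (-2.40, -2.66 to -2.16), the hepatic lipase LIPC (-1.55) and AMN (-1.01), and 1 higher member, LRP2. Among 12 complement genes 1 was higher and 1 lower (C1QC and C1S), a called share of 16.7%, near the 15.9% of all genes. Under scaling by total reads 3 complement genes were higher and none lower.

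**Figure D2:**
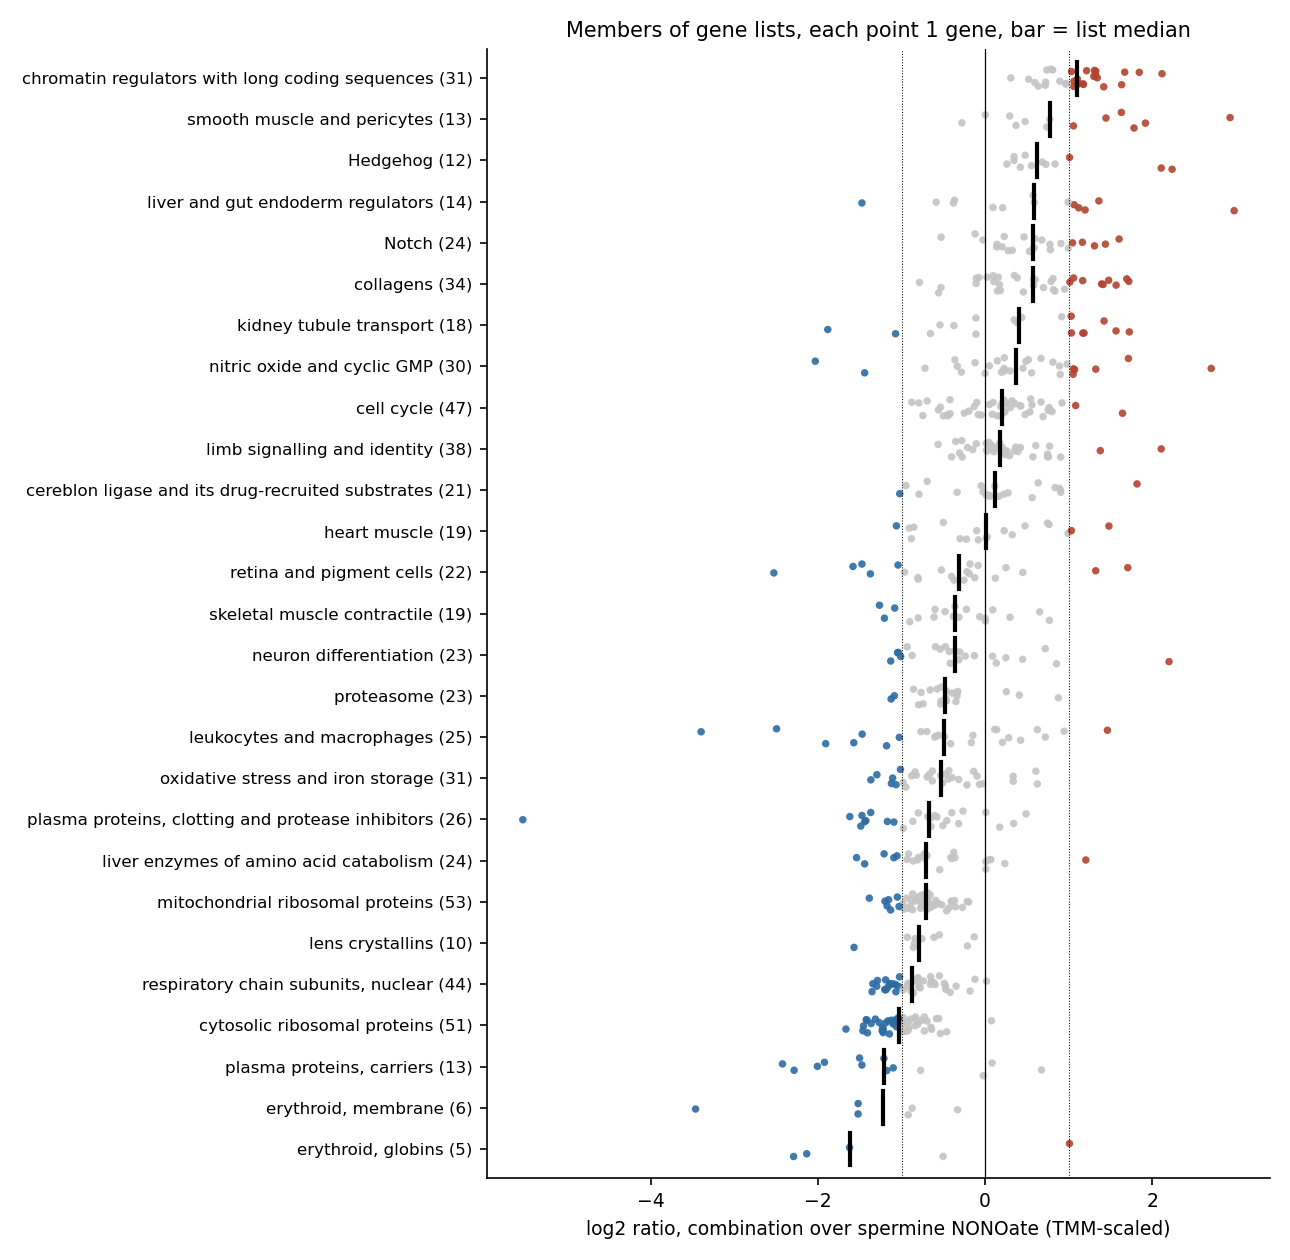
Each point is 1 gene of the list named at the left (number of genes compared in brackets), at its log2 ratio of combination over spermine NONOate, red where called higher, blue where called lower and grey where not called, with a black bar at the list median. Medians run from -1.63 for the globins at the bottom to 1.10 for chromatin regulators with long coding sequences at the top.

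Kidney genes gave more higher than lower calls. Of 18 tubule transport genes 7 were higher (38.9%, beside 9.84% of all genes) and 2 lower (11.1%, beside 6.03%), with a median log2 ratio of 0.41. LRP2, the megalin receptor of the proximal tubule and other epithelia, stood at 128 CPM in the combination, 56.7 in NONOate, 128 in thalidomide and 22.5 in control (1.17, 1.11 to 1.23). The sulfate transporter SLC13A1 had 245 reads in the combination, 57 in NONOate, 116 in thalidomide and 0 in control (1.73, 1.32 to 2.18). The salt transporters SLC12A3 (1.57) and SLC12A1 (1.03) of the distal nephron were higher, and the phosphate transporter SLC34A1 (-1.89, -2.06 to -1.72) and the calcium-binding protein CALB1 (-1.07) were lower, CALB1 not under scaling by total reads. Kidney regulators and podocyte genes had 2 higher members among 14 (14.3%), including PODXL, the podocalyxin of podocytes and vessels (1.48). TINAG, a basement membrane glycoprotein of the tubule, was lower at 1.56 CPM in the combination and 9.89 in NONOate (-2.66, -2.96 to -2.38). Over all 221 solute carrier genes 22 were higher (9.95%, beside 9.84% of all genes) and 6 lower (2.71%, beside 6.03%), with a median of 0.14. The dicarboxylate transporter SLC13A2 had the highest ratio of them (2.28, from 78 reads in the combination and 12 in NONOate), and the glutamine transporter SLC38A1 (1.80) and the bicarbonate transporter SLC4A4 (1.60) were higher as well. Of 11 genes of urothelium and epithelial surfaces MUC4, a membrane mucin, was the only call (1.63, 1.16 to 2.15), a share of 9.09%.

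Of 18 lens genes in both lens lists 3 were called (16.7%, beside 15.9% of all genes). All 10 crystallin genes had log2 ratios below 0, from -1.57 for CRYGS to -0.13 for ASL2, with a median of -0.80, and 1 was called lower. That was CRYGS, on 11 reads in the combination and 26 in NONOate. CRYAA, the alpha crystallin, stood at 38.0 CPM in the combination and 64.3 CPM in NONOate (-0.76, -0.83 to -0.69), beside 11.4 in thalidomide and 112 in control. Among 8 lens membrane, filament and regulator genes PROX1 was higher and GLULD1, a relative of glutamine synthetase, lower with 65 reads in the combination and 143 in NONOate. Under scaling by total reads 3 of these 8 were higher. Retina and pigment cell genes had 5 lower (22.7%, beside 6.03% of all genes) and 2 higher (9.09%, beside 9.84%) among 22 (median -0.31). The lower members were the tetraspanin TSPAN10 (-2.53, from 15 reads in the combination and 69 in NONOate), the melanocortin receptor MC1R (-1.58), TTR, the retinal G protein-coupled receptor RGR (-1.38) and the pigment cell endothelin receptor EDNRB2 (-1.04). The visual cycle isomerase RPE65 (1.71) and the cation channel TRPM1 (1.32) were higher. OC90, the otoconin of the inner ear, was lower at 5.06 CPM in the combination and 31.9 in NONOate, with 1.89 in thalidomide and 17.1 in control (-2.65, -2.82 to -2.50).

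Among 13 smooth muscle and pericyte genes 6 were higher (46.2%, beside 9.84% of all genes) and none lower (median 0.77). MYH11, the smooth muscle myosin heavy chain, stood at 408 CPM in the combination, 53.4 in NONOate, 741 in thalidomide and 372 in control (2.93, 2.88 to 2.99). The smooth muscle coactivator MYOCD stood at 13.2 CPM in the combination, 3.49 in NONOate, 11.9 in thalidomide and 10.3 in control (1.92, 1.71 to 2.14), and the potassium channel subunit ABCC9 at 152 CPM in the combination, 44.2 in NONOate, 252 in thalidomide and 136 in control (1.78, 1.72 to 1.85). For all of these NONOate was the lowest library and the combination lay above control. The pericyte receptor PDGFRB (1.63) and proteoglycan CSPG4 (1.06) and the myosin kinase MYLK (1.45) were the other higher members, while RGS5 (-0.28), ACTG2 (0.77) and SMTN (0.74) were not called.

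**Figure D3:**
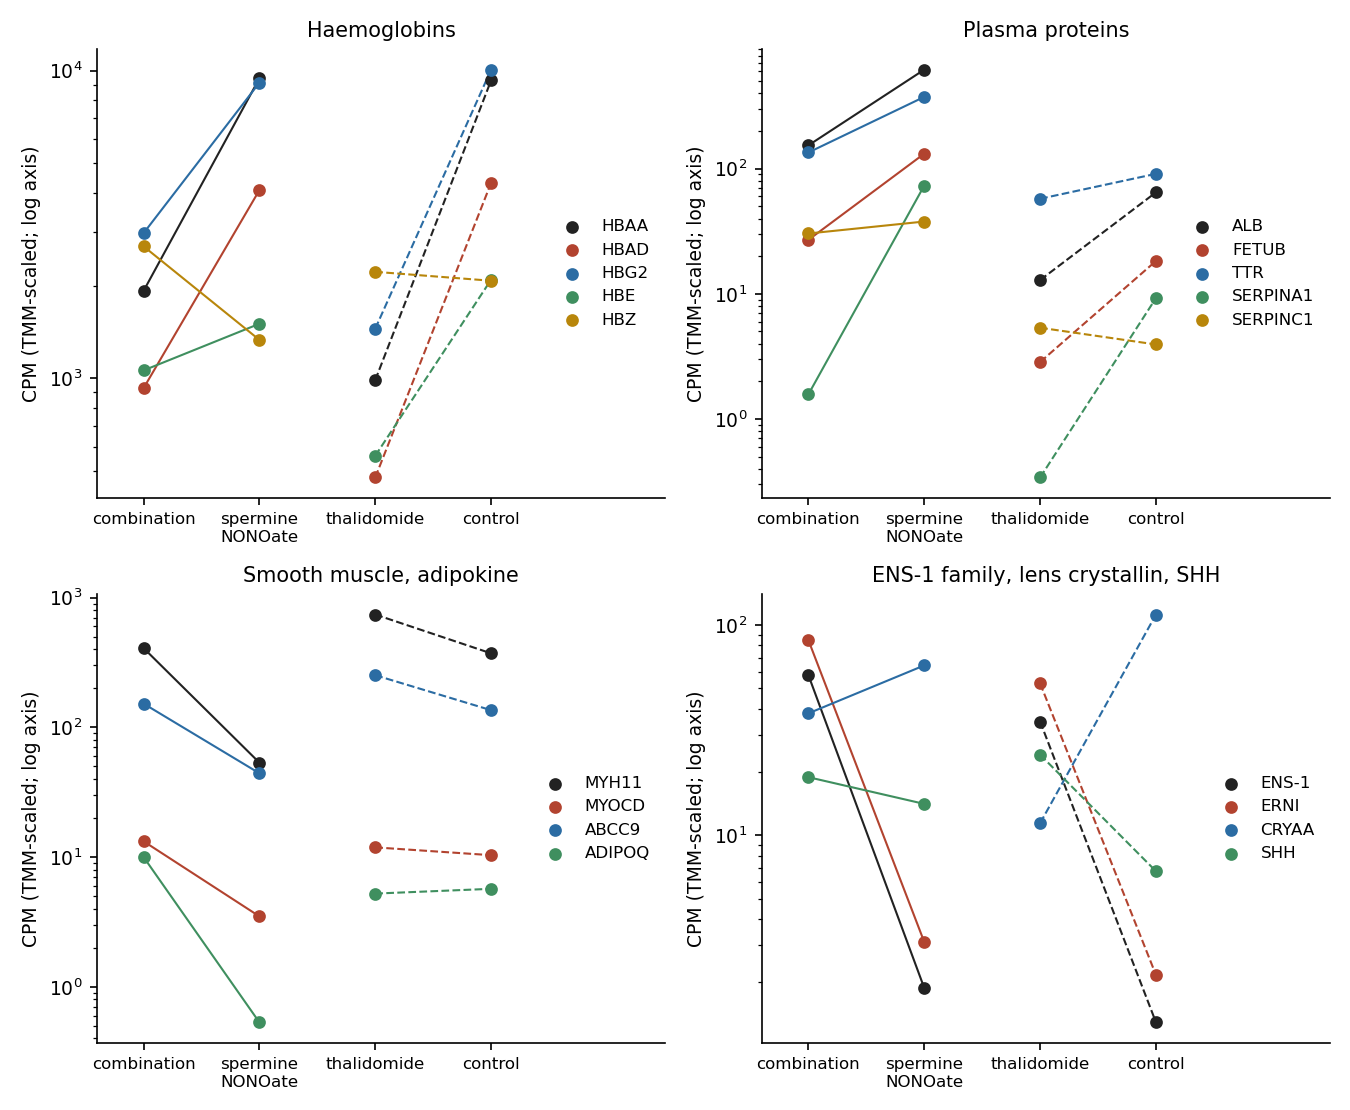
Levels (CPM, TMM-scaled, log axis) of selected genes in the combination, spermine NONOate, thalidomide and control libraries, 1 library each, with lines joining each thalidomide-treated library to the library without thalidomide that it is compared with. The haemoglobin and plasma protein genes shown, other than HBZ and SERPINC1, lie lower in the thalidomide-treated library of both pairs, and MYH11, MYOCD and ABCC9 are lowest in spermine NONOate.

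Skeletal muscle showed 3 lower calls (15.8%, beside 6.03% of all genes) and no higher ones among 19 contractile genes, with a median of -0.36. In either direction 15.9% of all genes were called. The lower members were TNNI2, the fast troponin I (29.6 CPM in the combination and 68.4 in NONOate, -1.21, -1.28 to -1.13), the caveolin gene CAV3 (-1.27) and SMPX (-1.08). The muscle progenitor factors PAX7 (29.8 CPM in the combination and 10.5 in NONOate, interval of the log2 ratio 1.37 to 1.63) and PAX3 (1.08) were higher among 13 regulators, whereas MYOD1 (-0.51) and MYF5 (-0.40) were not called. Heart muscle had 2 higher members among 19, the sodium-calcium exchanger SLC8A1 (1.03) and the transcription factor TBX20 (1.48), and 1 lower, the light chain MYL3 (-1.06), with a median of 0.01. MYL3 was not called under scaling by total reads. The share called in either direction was 15.4% for the regulators and 15.8% for heart muscle, near the 15.9% of all genes.

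Neuronal genes were mixed. Of 23 genes of neuron differentiation 4 were lower (17.4%, beside 6.03% of all genes) and 1 higher (4.35%, beside 9.84%), with a median of -0.37. Under scaling by total reads none were lower and 2 higher. Secretory granule genes SCG5 (-1.13) and SCG2 (-1.04) and the neuronal membrane genes RTN1 (-1.05) and NSG1 (-1.01) were lower, and DCX, the microtubule protein of migrating neurons, was higher at 253 CPM in the combination and 55.0 in NONOate (2.20, 2.15 to 2.26). Among 23 neural progenitor and patterning genes PAX3 and DBX1 (1.65) were higher (8.7%, below the 9.84% of all genes). Among 14 sympathoadrenal genes the nicotinic receptor subunits CHRNA3 (-1.30) and CHRNB4 (-1.03) were lower, the only calls of that list. They were 14.3% of it, whereas 6.03% of all genes were lower and 15.9% were called in either direction. Under scaling by total reads 4 of the progenitor genes were higher, and 1 of the sympathoadrenal genes was higher and 1 lower. UCN3, a stress peptide related to corticotropin-releasing factor, was lower at 37 reads in the combination and 271 in NONOate (-3.22, -3.78 to -2.74).

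Notch and Hedgehog genes gave higher calls and no lower ones. Of 24 Notch genes 5 were higher (20.8%, beside 9.84% of all genes) and none lower (median 0.58). The receptors NOTCH1 (526 CPM in the combination and 173 in NONOate, 1.60, 1.57 to 1.64) and NOTCH2 (1.17), the coactivator MAML1 (1.44), the ligand JAG1 (1.05) and the glycosyltransferase MFNG (1.31) were the higher members. The targets HES5 (0.20), HEY1 (0.14) and HEY2 (0.28) were not called. Of 12 Hedgehog genes 3 were higher and none lower (median 0.62), namely GLI3, the secreted cofactor SCUBE1 (47.3 CPM in the combination and 10.0 in NONOate, 2.24, 2.12 to 2.37) and the coreceptor BOC (1.01), which came just under 2-fold with DESeq2 and upper quartile scaling. Of 40 BMP and TGF-beta genes 3 were higher (7.5%), all receptor genes (BRK-3 at 1.73, ACVR2B at 1.66 and BMPR1B at 1.35), with a median of 0.09, and 7 were higher under scaling by total reads. The WNT list of 40 genes had 2 higher and 2 lower (10.0% called, below the 15.9% of all genes). The coreceptors LRP6 (2.50, 2.39 to 2.60) and LRP5 (1.28) were higher and the secreted antagonists SFRP4 (-1.47) and SOSTDC1 (-1.06) lower, SOSTDC1 not under scaling by total reads.

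In the skeleton and matrix, cartilage and bone genes had 5 higher and 3 lower members among 20 (median 0.17). SOX6 (1.80), SOX9 (1.09) and SOX5 (1.08), the transcription factors that drive chondrocyte differentiation, were higher together with ACAN, the aggrecan core protein (116 CPM in the combination and 48.1 in NONOate, 1.27, 1.20 to 1.33), and PTH1R, the parathyroid hormone receptor (1.80). The bone sialoprotein gene IBSP was lower on 6 reads in the combination and 43 in NONOate (-3.11, -4.73 to -1.97), as were the matrix genes EPYC (-1.11) and MATN3 (-1.14), both of which lost the call under scaling by total reads. Of 34 collagen genes 9 were higher (26.5%, beside 9.84% of all genes) and none lower (median 0.58). The higher ones were led by COL23A1 (1.72), COL15A1 (1.70) and COL25A1 (1.57). The fibrillar genes COL1A1 (-0.07) and COL1A2 (-0.11) were not called. Among 26 tendon and connective tissue genes the tendon gene TNMD (17.6 CPM in the combination and 60.7 in NONOate, -1.79) and ASPN (-1.79) were lower. COL5A1 and COL6A3 were higher, COL5A1 not under upper quartile scaling. Of this list 15.4% was called, near the 15.9% of all genes.

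The lists of ribosomal and mitochondrial protein genes gave lower calls and no higher ones. The lower share was 51.0% for cytosolic ribosomal proteins, 36.4% for respiratory chain subunits, 16.7% for mitochondrial import and 13.2% for mitochondrial ribosomal proteins. Over all genes 6.03% were lower and 15.9% were called in either direction. Of 51 cytosolic ribosomal protein genes 26 were lower and none higher (median -1.03), and they took 5.27% of reads in the combination and 9.46% in NONOate, beside 5.48% in thalidomide and 9.58% in control. RPL29 stood at 419.6 CPM in the combination and 1333 CPM in NONOate (-1.67, -1.69 to -1.65), followed by RPS21 (-1.46), RPL14 (-1.46), RPL38 (-1.43) and RPS7 (-1.41). Of 44 nuclear-encoded respiratory chain subunits 16 were lower and none higher (median -0.87), with ATP5J (-1.36), UQCRH (-1.35), COX6C (-1.30), NDUFB2 (-1.29) and NDUFA4 (-1.19) as examples. Mitochondrial ribosomal proteins had 7 lower of 53 (median -0.71), led by MRPS31 (-1.39) and MRPS17 (-1.20), and mitochondrial import genes 3 of 18 (median -0.73), TOMM7 (-1.08), DNAJC15 (-1.05) and TIMM10 (-1.02). The proteasome list had 2 of 23 lower (8.7%), POMP (-1.13) and PSMA2 (-1.09), with a median of -0.48. Under scaling by total reads the lower calls numbered 15 for cytosolic ribosomal proteins, 9 for respiratory chain subunits, 3 for mitochondrial ribosomal proteins and none for mitochondrial import and the proteasome, where 1 gene was then higher. With the upper quartile 5 import genes were lower. In a list added after the data were seen, 16 of 27 histone genes of chromosome 1 were lower (59.3%, median -1.14).

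Chromatin regulators lay on the other side of no change. Of 31 chromatin regulators with long coding sequences 19 were higher (61.3%, beside 9.84% of all genes) and none lower (median 1.10). They took 0.788% of reads in the combination and 0.344% in NONOate, beside 0.784% in thalidomide and 0.394% in control. TET1, the enzyme that oxidises methylated cytosine, stood at 61.3 CPM in the combination and 14.1 CPM in NONOate (2.12, 2.01 to 2.23). The histone methyltransferases MLL3 (1.85) and NSD1 (1.67) and the chromodomain helicases CHD6 (1.64) and CHD9 (1.42) followed. Ribosomal, respiratory and histone mRNAs are short and these are long. The part of mRNA length or of RNA quality in the ratios was not tested. This holds for these lists and for every other list and gene given here, among them the Notch, Hedgehog, collagen, globin and oxidative stress genes. Copies of ribosomal protein and histone genes can also share reads.

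Stress and metabolic genes gave few higher calls, with each list of this paragraph below the 9.84% of all genes. Of 31 oxidative stress and iron storage genes 6 were lower (19.4%, beside 6.03% of all genes) and none higher (median -0.53). Under scaling by total reads 2 were lower. PRDX1, a peroxiredoxin, stood at 775 CPM in the combination and 2003 CPM in NONOate (-1.37, -1.38 to -1.36). HMOX1, the inducible haem oxygenase, stood at 29.2 CPM in the combination, 63.7 in NONOate, 32.1 in thalidomide and 80.0 in control (-1.12, -1.20 to -1.05), and the ferritin heavy chain FTH1 (-1.11), the peroxidase GPX7 (-1.30) and the glutathione transferases GSTA3 (-1.07) and MGST2 (-1.01) were lower. NQO1 was not called (-0.07, -0.26 to 0.13). Of 19 apoptosis and p53 target genes the only call (5.26%) was TP53I3, a quinone oxidoreductase induced by p53 in human cells. It stood at 5.77 CPM in the combination and 29.0 CPM in NONOate, with 9.24 in thalidomide and 10.5 in control (-2.33, -2.48 to -2.18). Its list-mates MDM2 (0.92) and CDKN1A (-0.54) were not called, although MDM2 passed under scaling by total reads. Among 47 cell cycle genes CDK6 (1.65) and CCND2 (1.08) were higher (4.26%), with a median of 0.20. Among 30 heat shock proteins and chaperonins HSPE1 was lower (-1.25), 3.33% of that list. No call was made among 17 cholesterol synthesis genes (median 0.06). Of 29 genes of fatty acid metabolism 2 were higher, the carboxylase ACACA (1.35) and CPT1A, which came just under 2-fold with DESeq2, upper quartile and TMM scaling without the 50 genes with the most reads. Among 25 cytochrome P450 genes CYP3A4 (-1.22), CYP4B1 (-1.09), CP450CC24 (-1.07) and CYP11A1 (-1.05) were lower (16.0%, beside 6.03% of all genes). Under scaling by total reads 1 was lower and 1 higher.

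The ratio with the donor present was then set beside the ratio of thalidomide over control, which rests on the other 2 libraries. Over the 12026 genes compared in both, 76.2% had ratios of the same sign, and Pearson's r across genes was 0.66, given as a description since genes are not replicates. Called higher in both were 606 genes, which are 52.1% of the 1164 higher with NONOate present and 56.0% of the 1082 higher without it. Called lower in both were 268 genes, 38.1% of the 703 lower with NONOate and 31.5% of the 850 lower without. Background shares for thalidomide over control were 9.22% higher and 7.23% lower of 12138 genes. Of the genes higher with NONOate present 95.5% had a positive ratio without it, and of the lower ones 88.6% had a negative ratio. Their median ratios without NONOate were 1.02 and -0.77, and with it 1.33 and -1.25. These genes were chosen by their ratio with NONOate, which places that median past 2-fold by the rule. The sizes of the medians therefore cannot show whether the ratios were larger with the donor. Opposite calls were made for 20 genes, 5 of them with a symbol, and of those 1 of 2 genes with the symbol TM4SF4 alone had 100 reads in the higher library of each pair.

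**Figure D4:**
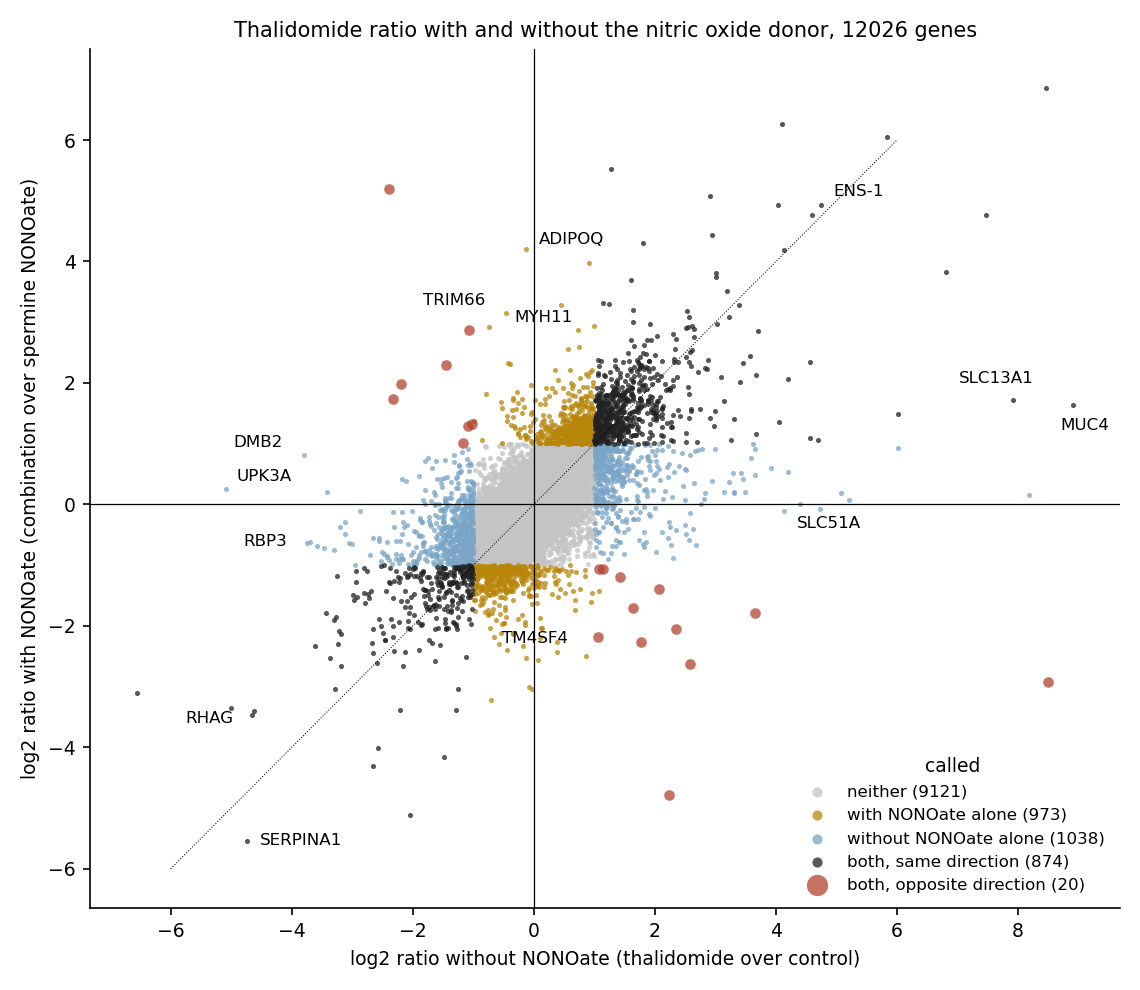
Each point is 1 of the 12026 genes compared in both pairs of libraries, with its log2 ratio of thalidomide over control on the x axis and of combination over spermine NONOate on the y axis, coloured by where it was called, and a dotted line of equal ratios. The word alone in the legend marks genes called in 1 of the pairs only. Most called genes lie in the lower left and upper right quadrants, 874 of them called in the same direction in both, and UPK3A, DMB2 and MUC4 lie far from the line.

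The difference between the log2 ratio with NONOate and the one without was at least 2-fold, with a counting interval that excluded 0, in 483 genes in the direction of a higher ratio with NONOate (4.02%) and in 509 in the direction of a lower one (4.23%), together 8.25% of the genes compared in both pairs. Called higher in the combination over NONOate and not called in thalidomide over control were 550 genes, of which 105 met this rule. Called lower in the first pair and not called in the second were 423, of which 130 did. For the remainder a call in 1 pair of libraries was not accompanied by a difference of that size. Lens crystallins were among the genes with a difference. Of the 10 crystallins 9 had a higher ratio with NONOate by the rule, since 9 of 10 were lower in thalidomide over control (median -2.42) and 1 of 10 in the combination over NONOate (median -0.80). For CRYAA the difference was 2.54 (2.41 to 2.66), and for the delta crystallin gene ASL1 2.01. The globin genes HBAD, HBG2 and HBE had higher ratios with NONOate as well (differences 1.04, 1.17 and 1.40), although HBAD and HBG2 were called lower in both pairs.

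Kidney tubule genes differed in the other direction, with 11 of 18 having a lower ratio with NONOate, beside 4.23% of all genes. Of these genes 7 were higher in the combination over NONOate and 11 in thalidomide over control (medians 0.41 and 1.45). The median without NONOate was also 1.45 with SLC13A1, which had 0 control reads, set to its bound against a floor of 3 reads. Lower ratios with NONOate were not particular to kidney. They were found in 7 of 11 lipoprotein and lipid carrier genes (1 had a higher ratio). The same held for 5 of 13 liver and gut endoderm regulators (1 higher) and 7 of 25 clotting factors and inhibitors (none higher). SLC51A, a subunit of a bile salt and steroid transporter, stood at 5.22 CPM in the combination, 5.63 in NONOate, 23.6 in thalidomide and 1.33 in control (difference -4.25, -4.61 to -3.89). The amino acid transporter gene SLC7A13 stood at 6.19 CPM in the combination, 9.79 in NONOate, 5.13 in thalidomide and 0.796 in control (-3.34). For this gene the control library was low and the other 3 were of similar size. MUC4 had 181 reads in the combination, 45 in NONOate, 1626 in thalidomide and 3 in control, a difference of -7.28 (-8.86 to -5.69) that rests on those control reads. C12ORF59, with 167 reads in the combination, 123 in NONOate, 124 in thalidomide and 3 in control, differed by -5.13 (-6.70 to -3.56). The acyl-CoA synthetase gene ACSM4 stood at 14.8 CPM in the combination, 20.7 in NONOate, 2.55 in thalidomide and 0.439 in control (-3.01), and 1 of 2 genes that bear the symbol of cyclin F, CCNF, differed by -3.67.

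At the other end, UPK3A, a uroplakin of the urinary tract lining, had 132 reads in the combination, 86 in NONOate, 73 in thalidomide and 2572 in control, so that control alone was high (difference 5.33, 4.82 to 5.84). DMB2, a class II histocompatibility gene whose reads can be shared with its neighbours, stood at 14.8 CPM in the combination, 8.44 in NONOate, 2.15 in thalidomide and 30.1 in control (4.61, 4.33 to 4.89). BF2, a class I gene of the same locus, stood at 8.16 CPM in the combination, 10.0 in NONOate, 1.35 in thalidomide and 11.8 in control (2.83). Thalidomide was the low library of the 4 for both. SOX14, a transcription factor of interneurons, stood at 6.66 CPM in the combination, 7.15 in NONOate, 1.39 in thalidomide and 10.2 in control (2.77), and RBP3, the retinoid carrier of photoreceptors, at 2.09 CPM in the combination, 3.21 in NONOate, 0.326 in thalidomide and 4.33 in control (3.09). ADIPOQ (4.34) and TRIM66 (3.61) differed through their low level in NONOate. The smooth muscle genes MYH11 (1.94) and MYOCD (1.72) also had higher ratios with NONOate, 4 of 13 in that list, beside 4.02% of all genes.

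Several lists had nearly the same median in both pairs. Cytosolic ribosomal proteins had medians of -1.03 with NONOate and -0.99 without, and no member met the rule for a difference. The nitric oxide and cyclic GMP list had medians of 0.38 and 0.38, and the oxidative stress list -0.53 and -0.54. Single members still differed by the rule. In the nitric oxide list 2 of 30 had a higher ratio with NONOate and 1 a lower one. In the oxidative stress list 2 of 31 had a higher one. Over all genes compared in both pairs 4.02% had a higher ratio and 4.23% a lower one. Counts this small are therefore not read as a trait of either list. NOS1 differed by 1.49 (1.22 to 1.76) and NQO1 by 1.20 (0.86 to 1.54). NOS2, called higher in thalidomide over control (1.17), differed by -0.94, which is under 2-fold. Limb genes, in contrast, had medians of different sign, 0.18 and -0.26. Of 38 members 6 had a higher ratio with NONOate and 2 a lower one, beside 4.02% and 4.23% of all genes compared in both pairs. SHH stood at 18.9 CPM in the combination, 14.1 in NONOate, 24.2 in thalidomide and 6.75 in control (difference -1.42, -1.61 to -1.23), FGF8 had a difference of -1.17, TP63 one of 1.23 and HOXA13 one of 2.37.

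**Figure D5:**
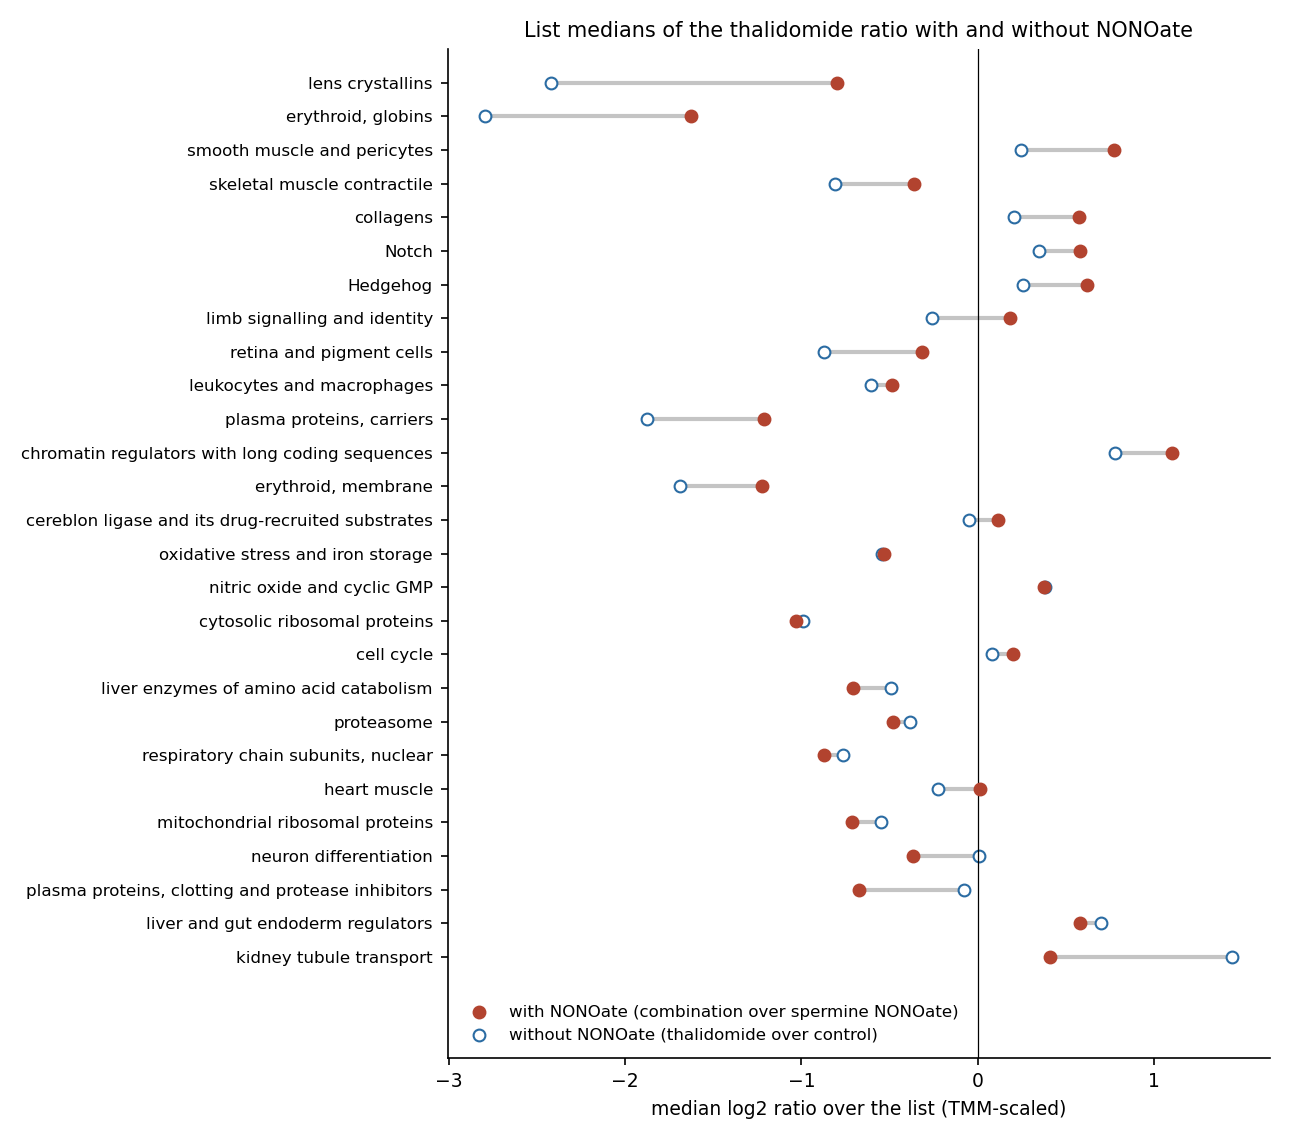
Median log2 ratio over each gene list with NONOate (filled, combination over spermine NONOate) and without it (open, thalidomide over control), with lists ordered by the median of their members' differences. Lens crystallins (-0.80 and -2.42) and kidney tubule transport (0.41 and 1.45) lie at opposite ends of the order, while cytosolic ribosomal proteins nearly coincide (-1.03 and -0.99).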

How the data were processed

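Total RNA of whole embryos was extracted with Trizol and sequenced on an Illumina instrument, per the labels' protocols. Per the submitters' processing notes, the tools included TopHat2 (2.0.8) and DESeq, with the genome build galGal4, and the gene models came from release 75 of Ensembl, per the file headers. The deposited values used are the authors' raw read counts per gene, without normalization, and, from the authors' own comparisons, a ratio (fold), its log2 value and a p-value, of which only the direction and the unadjusted p were used. How reads were counted, and whether strand was used, is not given in the sources used here. Reads of overlapping or antisense genes, and of near-identical copies, can therefore not be separated. No molecular identifiers mark the reads, which are thus not independent molecules, and intervals cover counting error only.

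Counts were scaled with TMM over the 4 libraries (edgeR 4.0.16, R 4.3.3). Exact conditional-binomial (Clopper-Pearson) intervals at 95% were computed with SciPy 1.17.1. The difference of the 2 log2 ratios has an interval by the delta method. No p-value was computed, since each condition has 1 library. Of 52 gene lists, 45 were written out by name (1397 entries, 934 found, 20 of them under an older symbol through the RefSeq table of GRCg7b, used for names alone) and 7 were taken by name pattern. A further list, of histone genes, was added after the data were seen. Where genes share a symbol, lists hold the one with the most reads. The members, lists and rules were chosen with earlier results of these data known. Genes named are those with a symbol and at least 100 reads whose interval ends furthest from no change (12 in each direction), a set of genes tied to thalidomide or nitric oxide, up to 5 called members of lists with 3 or more calls in 1 direction, members of lists of up to 20 genes and the extremes of longer lists, up to 6 called in both comparisons and up to 6 called in opposite directions, and the 8 highest and 8 lowest differences. A few further members were chosen after their values were seen, and some genes that the rule names are not reported here. Other settings tried were scaling by total reads, DESeq2 1.42.0 size factors, the upper quartile, TMM without the 50 genes with the most reads, 5 added reads, other minimums and other folds.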

Additional observations from a re-analysis of the deposited data

Results flagged for a closer look

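1 of 2 genes with the symbol TM4SF4, a tetraspan membrane protein gene, was flagged because its libraries moved in opposite directions in the pairs with and without NONOate. It had 163 reads in the combination and 575 in NONOate, a log2 ratio of -2.18, and 121 reads in thalidomide and 60 in control, a log2 ratio of 1.05. The difference of the log2 ratios was -3.24 (counting interval -3.75 to -2.73). The difference was not tested, since each condition has 1 library. It was the only gene called in opposite directions that had a symbol and at least 100 reads in the higher library of each pair.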

How the results depend on the processing

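With other folds, 159 genes were higher and 80 lower at 4-fold, and 2565 and 2177 at 1.5-fold. Called higher in both pairs were 55 and 1581, lower in both 31 and 1063, and opposite 5 and 96. Differences were 61 and 1556 higher and 104 and 1346 lower. Scaling by total reads left 468 genes lower, 945 higher in both and 163 lower in both. A minimum of 100 reads left 5 opposite genes and 327 lower differences. DESeq2 size factors gave 1152 higher and 764 lower, the upper quartile 1128 and 801, and every other setting for these counts stayed within 1.5 times. List medians changed sign for lipoproteins under total reads (0.061 against -0.097) and for early embryo genes with no minimum of reads (-0.055 against 0.14). Small medians also changed sign for skeletal muscle regulators, tendon and heat shock genes under total reads, and for heart and cytochrome P450 genes under DESeq2 or the upper quartile. Of 267 called list members and named genes 64 lost the call under at least 1 of 5 settings (4 scalings and 5 added reads), all with ratios near 2-fold. Among those named here, AGMAT, AMN, C1S, CALB1, CHRNB4, CP450CC24, CYP11A1, CYP4B1, DAZL, DNAJC15, EDNRB2, EPYC, FGG, FTH1, GC, GSTA3, HMOX1, MATN3, MGST2, MYL3, NSG1, POMP, PSMA2, RNF7, RTN1, SCG2, SCG5, SMPX, SOSTDC1, SPI1, TDO2, TIMM10, TOMM7 and UROC1 lost it under total reads. BOC, CPT1A and HBZ lost it under DESeq2 and upper quartile scaling, COL5A1 under the upper quartile, CPT1A also without the 50 genes with the most reads, and AGMAT and MGST2 also with 5 added reads. Why a setting moved a value was not tested beyond its construction. No paired analysis was possible because each condition has 1 library and the labels give no replicate numbers. Leaving out a library was not possible for the same reason. Ratios by protein length and gene span were planned and not run, because no lengths of the build of the counts were used here.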
